A study of Homo sapiens with 12 samples.

Results

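The histone genes were examined in 2 established cell lines of human pancreatic ductal adenocarcinoma, CFPAC-1 and BxPC-3, in which removing serum brings out primary cilia, the sensory organelle of many resting cells. The 4 groups were CFPAC-1 starved of serum for 48 h, CFPAC-1 in normal culture (control), BxPC-3 starved for 48 h and BxPC-3 in normal culture (control), each with 3 RNA-seq libraries. The series text gives 39% of starved and 7% of control CFPAC-1 cells as ciliated, and 78% of starved and 5% of control BxPC-3 cells, so starvation and cilium growth cannot be told apart. The labels do not state whether the libraries of a group are separate cultures. The p-values below thus rest on the scatter of libraries alone, part or all of which may be technical. Members were the rows of the deposited table whose symbol begins with HIST1 to HIST4 followed by a core or linker histone name, or with H1F, H2AF or H3F3, without pseudogene names. They number 88 of 60564 rows: 69 clustered genes, 16 replacement variants, and 3 that the annotation calls pseudogenes (HIST2H2BA, HIST3H2BA) or antisense (H1FX-AS1) and that were counted in neither class. The 88 rows carry 87 symbols, because HIST1H3D labels a second row, a gene named AL031777.3 in GENCODE 29 that overlaps HIST1H3D and HIST1H2AD.

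Core histones H2A, H2B, H3 and H4 form the protein spool of the nucleosome, and linker histone H1 binds the DNA between nucleosomes. Clustered histone genes lie in groups on chromosomes 6 and 1, are transcribed mainly in S phase with DNA replication, lack introns for the most part, and give mRNAs that end in a stem-loop bound by SLBP in place of a poly(A) tail. Replacement variants lie alone in the genome, are expressed throughout the cell cycle, and give ordinary polyadenylated mRNAs. Some clustered genes also make polyadenylated mRNA, which has been described in differentiated and resting cells. The sources used here do not give the way in which RNA was selected for the libraries.

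The stem-loop is shown first, since it is a feature of the clustered class by which its mRNAs are processed. The pattern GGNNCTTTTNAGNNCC was searched on the sense strand after the stop codon in the coding transcripts of GENCODE 29. The annotation gives no 3′ UTR for 32 of the 69 clustered genes, HIST1H1C and HIST1H2BK among them, so their mRNA ends could not be searched. Of the other clustered genes, 23 hold the stem-loop in a transcript that runs at least 100 bases past it, 9 in transcripts that end nearer to it, and 5 have no match. Among the replacement variants only H2AFX has a match, 1044 bases before its annotated end. The sites below belong to genes whose levels are given further on, whether or not they passed a test. Capitals mark the 16 bases of the match, the coordinates are those of the match on GRCh38, and the bases are written as DNA.
HIST1H2BD, chr6:26158587-26158602 (+): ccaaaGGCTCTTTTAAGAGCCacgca
HIST2H2AA3, chr1:149842223-149842238 (-): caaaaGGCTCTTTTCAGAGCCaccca
HIST1H2AC, chr6:26124669-26124684 (+): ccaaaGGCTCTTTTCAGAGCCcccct
HIST3H2A, chr1:228457369-228457384 (-): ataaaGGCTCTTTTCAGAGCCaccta
HIST2H2BE, chr1:149886188-149886203 (-): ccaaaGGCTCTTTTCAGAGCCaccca
HIST1H2BG, chr6:26216218-26216233 (-): tcaaaGGCTCTTTTCAGAGCCactca
HIST1H4E, chr6:26205001-26205016 (+): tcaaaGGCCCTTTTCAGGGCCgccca
H2AFX, chr11:119094898-119094913 (-): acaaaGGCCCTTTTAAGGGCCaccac

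Promoters were searched as well. Windows from RefSeq, covering 250 bases before to 50 after each gene's start on GRCh38.p14, matched 61 clustered genes and 14 replacement variants. TATAAA was found on either strand in 65.6% of clustered and 28.6% of replacement windows, beside 11.5% of all 35116 promoter windows. The H2B octamer ATTTGCAT was in 42.6% of clustered and 7.14% of replacement windows, beside 1.77% of all windows, and the clustered matches were in 11 of 14 H2A, 14 of 18 H2B and 1 of 10 H3 windows. CCAAT was in 83.6% of clustered and 78.6% of replacement windows, beside 34.6% of all windows, and within the clustered class in 3 of 13 H4 windows. The H1 box AAACACA, a motif searched after the others had been chosen, was in 6 of 6 clustered H1 windows and in 14.8% of all clustered windows, beside 7.14% of replacement windows and 5.64% of all windows. Each motif was counted by itself, and matches of different motifs may overlap. A match is a string of letters and not a binding site. The 160 bases before the start are printed for the clustered gene with the largest starvation change (HIST1H1C), for 2 others that changed (HIST1H2BD, HIST1H2AC), and for an abundant clustered gene whose change did not pass the test (HIST1H2BK), with matches in capitals.
HIST1H1C, chr6:26056471-26056630 (-): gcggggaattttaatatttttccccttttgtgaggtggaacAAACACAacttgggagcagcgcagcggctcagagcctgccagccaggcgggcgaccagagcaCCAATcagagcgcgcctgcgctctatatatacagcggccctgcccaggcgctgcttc
HIST1H2BD, chr6:26157961-26158120 (+): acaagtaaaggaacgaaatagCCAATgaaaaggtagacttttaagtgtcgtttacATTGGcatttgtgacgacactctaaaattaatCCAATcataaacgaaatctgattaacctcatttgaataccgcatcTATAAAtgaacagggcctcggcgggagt
HIST1H2AC, chr6:26124012-26124171 (+): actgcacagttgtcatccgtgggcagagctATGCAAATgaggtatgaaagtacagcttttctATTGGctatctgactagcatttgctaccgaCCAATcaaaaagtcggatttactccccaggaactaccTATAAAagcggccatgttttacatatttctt
HIST1H2BK, chr6:27146859-27147018 (-): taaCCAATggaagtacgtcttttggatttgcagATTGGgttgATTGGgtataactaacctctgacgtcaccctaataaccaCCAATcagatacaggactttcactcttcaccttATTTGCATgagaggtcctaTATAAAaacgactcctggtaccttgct

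HIST1H2AC and HIST1H2BK hold the octamer, TATAAA and CCAAT in this stretch. HIST1H2BD holds TATAAA and CCAAT without the octamer, and HIST1H1C holds CCAAT and the H1 box without TATAAA.

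Levels are in FPKM, that is, fragment counts scaled to transcript length and to the library's mapped fragments, recovered from the deposited log2(FPKM + 1) values. The read depth is unknown, and low values put the libraries' relative depth at 0.633 to 1 of the deepest. CFPAC-1 control libraries 2 and 3 stand apart. They correlated with each other at 0.990 and with the other 4 CFPAC-1 libraries at 0.803, whereas those 4 correlated among themselves at 0.944 (means of Pearson r across genes, a description). The duct keratin KRT19 was at 7.42 and 7.67 FPKM in these libraries, against 254 to 627 FPKM in the other CFPAC-1 libraries. The epithelial adhesion gene EPCAM was at 0.963 and 1.04 FPKM there, against 11.2 to 14.8 FPKM. MUC1 was lower there too, at 1.49 and 1.58 FPKM, against 9.23 to 35.3 FPKM. So was CDH1, at 0.192 and 0.180 FPKM, against 0.423 to 0.892 FPKM. SOX9 was higher there, at 55.1 and 53.0 FPKM, against 13.2 to 18.9 FPKM. KRT18 was higher as well, at 318 and 311 FPKM, against 125 to 254 FPKM. The values of KRT7 and KRT8 overlapped. Calls in CFPAC-1 are therefore given with all libraries and without controls 2 and 3. The second fit holds 1 CFPAC-1 control library, and takes its spread from the other groups. Duct markers KRT8 and KRT18 were at 43.1 FPKM or more in all 12 libraries, while KRT7 and CDH1 stayed at or below 2.01 FPKM in all CFPAC-1 libraries. Summed immune markers were 37.6 to 48.3 FPKM in starved and 10.6 to 13.2 FPKM in control CFPAC-1, almost all of it in starved libraries CD68, which rose (log2 change 2.16, limma adjusted p = 0.00339, and 1.61 without controls 2 and 3, limma adjusted p = 0.0897), while PTPRC, which defines blood cells, did not exceed 0.00981 FPKM in any library. Summed fibroblast markers were 26.0 to 110 FPKM in starved and 6.31 to 37.3 FPKM in control CFPAC-1. The sum came mainly from LUM except in controls 2 and 3, where LUM was at or below 0.0532 FPKM. In controls 2 and 3 COL1A1 was at 4.275 and 4.279 FPKM and COL3A1 at 1.983 and 2.062 FPKM. In the other CFPAC-1 libraries they were at or below 0.1403 and 0.1599 FPKM. COL1A2 was at or below 0.283 FPKM in all CFPAC-1 libraries. The part of these markers in the results was not tested.

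Most histone genes were barely detected. Of the 88 members, 5 were listed at 0 in every library (HIST1H2AA, HIST1H2BA, HIST1H4F, HIST1H4G and H1FOO), and 45, these 5 included, stayed below 1 FPKM in all 12. The filter for testing, at least 1 FPKM in at least 3 libraries, kept 26 clustered genes and 10 replacement variants, so 52 members were not tested. It kept 1 of 6 clustered H1 genes, 9 of 17 H2A, 6 of 18 H2B, 3 of 13 H3 and 7 of 15 H4 genes. HIST1H2BG and HIST1H4E passed through starved CFPAC-1 alone, so that group had to stand high for them and their calls are no support. HIST1H3E reached 1 FPKM in 3 starved CFPAC-1 libraries and 1 starved BxPC-3 library. It too needed starved CFPAC-1 to pass, so its calls are no support either. HIST1H1C and HIST1H2BK were the clustered genes of highest level, with means over the 4 groups of 111 and 93.3 FPKM, and H1F0 and H2AFZ the replacement variants of highest level, with 134 and 106 FPKM.

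In CFPAC-1, 18 of the 26 tested clustered genes rose with starvation and none fell, against 1 rise and 1 fall among 10 tested replacement variants. The test was limma on log2(FPKM + 1) with Benjamini-Hochberg adjustment over 12860 genes and a threshold of 0.05. Of all tested genes, 7.85% rose and 8.77% fell in this comparison. Fewer cells of a kind and less RNA per cell cannot be told apart in such bulk samples. Without HIST1H2BG and HIST1H4E, 16 of 24 clustered genes rose with all libraries, and 10 of 24 without controls 2 and 3. HIST1H3E, which also needed starved CFPAC-1 to pass the filter, is still among the 16. The median log2 change was 1.55 for the clustered genes, 0.03 for the replacement variants and -0.09 for all tested genes. Without controls 2 and 3, 12 clustered genes rose, all 12 among the 18, with a median of 1.60, and no replacement variant passed. In that fit 1.06% of all tested genes rose. Every starved library was above every control library for 19 clustered genes and 3 replacement variants, as for 14% of all tested genes. The reverse held for no tested clustered gene and 3 replacement variants, as for 17.6% of all tested genes.

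**Figure D1:**
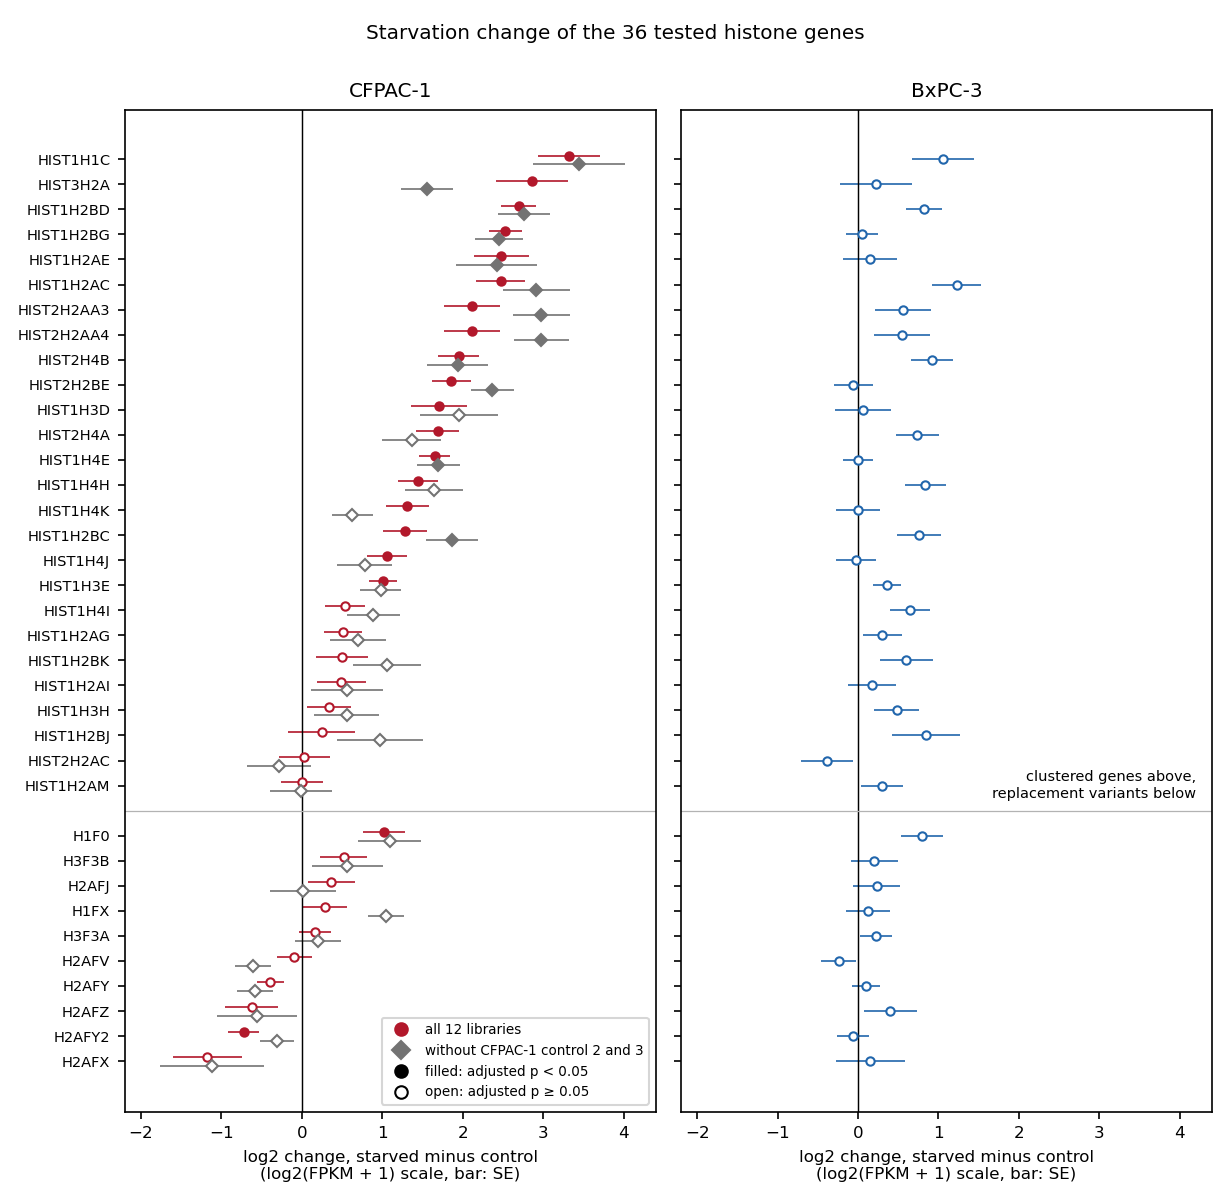
Log2 change with starvation (starved minus control, log2(FPKM + 1) scale, bars are standard errors) of the 26 clustered genes and 10 replacement variants tested, CFPAC-1 at left with all libraries and without control libraries 2 and 3, BxPC-3 at right. Filled symbols passed an adjusted p of 0.05: 18 clustered genes in CFPAC-1 with all libraries, 12 without controls 2 and 3, and none in BxPC-3.

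The largest change was that of 1 linker histone gene. HIST1H1C, the clustered H1 gene that was tested, on chromosome 6 (26055787 to 26056428, GRCh38), had 204, 417 and 383 FPKM in starved CFPAC-1 and 28.4, 32.5 and 32.8 FPKM in control CFPAC-1. Starved and control libraries did not overlap, and starved library 1 was the lowest of its group. Its log2 change was 3.32 ± 0.38 (SE, n = 3 and 3, limma adjusted p = 0.000966), and 3.45 ± 0.57 without controls 2 and 3 (limma adjusted p = 0.0241). H1F0, a replacement H1 known to accumulate in resting and differentiated cells, had 252, 172 and 179 FPKM in starved CFPAC-1 and 92.3, 100.2 and 97.5 FPKM in control CFPAC-1. It was the 1 replacement variant that rose, by 1.03 ± 0.26 (limma adjusted p = 0.0255). Without controls 2 and 3 the change was 1.09 ± 0.39 and did not pass (limma adjusted p = 0.176). It also missed the threshold when any 1 of the 3 starved libraries, control 2 or control 3 was left out (limma adjusted p = 0.0527 to 0.0877). H1FX, a replacement H1 expressed in many tissues, had 102, 129 and 119 FPKM in starved CFPAC-1 and 55.7, 126 and 121 FPKM in control CFPAC-1, which overlap. Its log2 change was 0.29 ± 0.27 (limma adjusted p = 0.475), and 1.05 ± 0.22 against control 1 alone (limma adjusted p = 0.0529). H1FX-AS1, on the other strand, did not exceed 0.148 FPKM in any library.

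The composition of H1 mRNA differed accordingly. HIST1H1C made up 50.2% ± 11.9 of the summed FPKM of the H1 members in starved CFPAC-1 and 13.8% ± 1.86 in control CFPAC-1 (SD, n = 3 each). The share of H1FX was 17.8% ± 0.43 in starved and 42.5% ± 9.73 in control CFPAC-1, and that of H1F0 was 31.7% ± 11.6 and 43.0% ± 7.69. No other clustered H1 gene passed the filter: HIST1H1E reached 1.53 FPKM and HIST1H1B 1.17 FPKM at most. GENCODE 29 holds HIST1H1C as its coding region only, and the authors' annotation is not named in the sources used here, so levels of different genes are comparable only as far as their annotated lengths are.

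Among the H2A genes, 5 of 9 tested clustered genes rose in CFPAC-1. HIST1H2AC had 18.2, 38.3 and 37.7 FPKM in starved and 3.07, 5.16 and 5.81 FPKM in control CFPAC-1. HIST3H2A, of the small HIST3 group on chromosome 1, had 35.6, 40.6 and 36.9 FPKM in starved and 12.1, 2.49 and 2.29 FPKM in control CFPAC-1. The control libraries of HIST3H2A split, with control 1 above controls 2 and 3. The log2 change of HIST1H2AC was 2.47 ± 0.31 (limma adjusted p = 0.0013) and 2.92 ± 0.41 without controls 2 and 3 (limma adjusted p = 0.0134). That of HIST3H2A was 2.86 ± 0.44 (limma adjusted p = 0.00353) and 1.56 ± 0.32 without them (limma adjusted p = 0.0463). Both genes passed in either fit, with the change of HIST3H2A smaller and that of HIST1H2AC larger against control 1 alone. HIST2H2AA3 and HIST2H2AA4 are near-identical copies that can share reads, so their separate values are uncertain. HIST2H2AA3 had 41.0, 80.8 and 75.8 FPKM in starved and 7.13, 20.6 and 17.5 FPKM in control CFPAC-1, a log2 change of 2.11 ± 0.35 (limma adjusted p = 0.00477), and 2.98 ± 0.35 without controls 2 and 3 (limma adjusted p = 0.00679). HIST1H2AE had 6.96, 20.5 and 21.8 FPKM in starved and 1.94, 2.12 and 1.45 FPKM in control CFPAC-1, a log2 change of 2.48 ± 0.34 (limma adjusted p = 0.00205), and 2.42 ± 0.50 without controls 2 and 3 (limma adjusted p = 0.0463).

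Of the tested replacement H2A variants none rose, and 1 fell. H2AFX encodes the variant phosphorylated at DNA breaks. It had 19.1, 79.9 and 71.7 FPKM in starved and 106, 113 and 111 FPKM in control CFPAC-1. Every starved library was lower for H2AFX, as for 17.6% of all tested genes. Its log2 change was -1.17 ± 0.43 with all libraries and -1.12 ± 0.65 without controls 2 and 3, and passed in neither fit (limma adjusted p = 0.0766 and 0.411). H2AFZ encodes H2A.Z, a variant at the starts of active genes, and had 47.8, 81.4 and 144 FPKM in starved and 122, 127 and 135 FPKM in control CFPAC-1. The starved libraries were widely spread and the groups overlapped (log2 change -0.62 ± 0.33, limma adjusted p = 0.196). H2AFY and H2AFY2 encode macroH2A proteins, variants with a large extra domain that are linked to silent chromatin. H2AFY2 had 3.20, 4.10 and 4.30 FPKM in starved and 4.98, 7.61 and 8.92 FPKM in control CFPAC-1. It fell by 0.72 ± 0.20 on the log2 scale (limma adjusted p = 0.0316), whereas against control 1 alone the change was -0.30 ± 0.21 (limma adjusted p = 0.502). The call was also lost when any 1 of the 3 starved CFPAC-1 libraries, CFPAC-1 control 2 or 3, BxPC-3 control 2 or BxPC-3 starved 3 was left out (limma adjusted p = 0.0509 to 0.143). H2AFY had 5.87, 5.54 and 4.90 FPKM in starved and 8.60, 6.37 and 7.43 FPKM in control CFPAC-1 (log2 change -0.39 ± 0.17, limma adjusted p = 0.123). H2AFV, a close relative of H2AFZ, had 23.1, 24.1 and 27.1 FPKM in starved and 38.1, 22.0 and 21.8 FPKM in control CFPAC-1. H2AFJ had 11.0, 25.6 and 22.0 FPKM in starved and 18.2, 12.6 and 12.2 FPKM in control CFPAC-1. The groups overlapped for both. In control CFPAC-1 library 1 was the highest for both genes. They had log2 changes of -0.09 ± 0.22 and 0.36 ± 0.29, and neither passed (limma adjusted p = 0.8 and 0.392). H2AFZ overlaps AC097460.1, and reads of the pair may not be separable.

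Among the H2B genes, for which no replacement variant is in the set, 4 of 6 tested clustered genes rose in CFPAC-1. The 4 include HIST1H2BG, which passed the filter through starved CFPAC-1 alone, so its calls in either fit are no support. HIST1H2BD had 53.9, 95.0 and 89.1 FPKM in starved and 10.5, 11.6 and 11.1 FPKM in control CFPAC-1. The 3 controls lay close together and far below the starved libraries. The log2 change was 2.70 ± 0.22 (limma adjusted p = 0.000179), and 2.77 ± 0.32 without controls 2 and 3 (limma adjusted p = 0.00679). HIST1H2BD overlaps AL353759.1 and LARP1P1, with which it may share reads. HIST1H2BG had 5.76, 9.47 and 11.1 FPKM in starved and 0.737, 0.630 and 0.567 FPKM in control CFPAC-1. It rose by 2.53 ± 0.20 (limma adjusted p = 0.000179) and HIST2H2BE by 1.86 ± 0.24 (limma adjusted p = 0.0015), and HIST1H2BC, with 7.18, 10.6 and 10.9 FPKM in starved and 1.86, 4.35 and 4.12 FPKM in control CFPAC-1, rose by 1.28 ± 0.28 (limma adjusted p = 0.0142, and 0.0544 and 0.0554 without starved library 2 and without starved library 3). These 3 genes also passed without controls 2 and 3, with changes of 2.45, 2.37 and 1.86 (limma adjusted p = 0.00748, 0.00679 and 0.0283). HIST1H2BK, the most abundant H2B gene, had 78.3, 143 and 153 FPKM in starved and 56.9, 105 and 100.1 FPKM in control CFPAC-1, and the groups overlapped. Its log2 change was 0.50 ± 0.33 (limma adjusted p = 0.289), and 1.06 ± 0.42 without controls 2 and 3 (limma adjusted p = 0.218). HIST1H2BK held 50.7% ± 2.89 of the summed H2B FPKM in starved and 78.9% ± 2.2 in control CFPAC-1 (SD, n = 3 each).

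**Figure D2:**
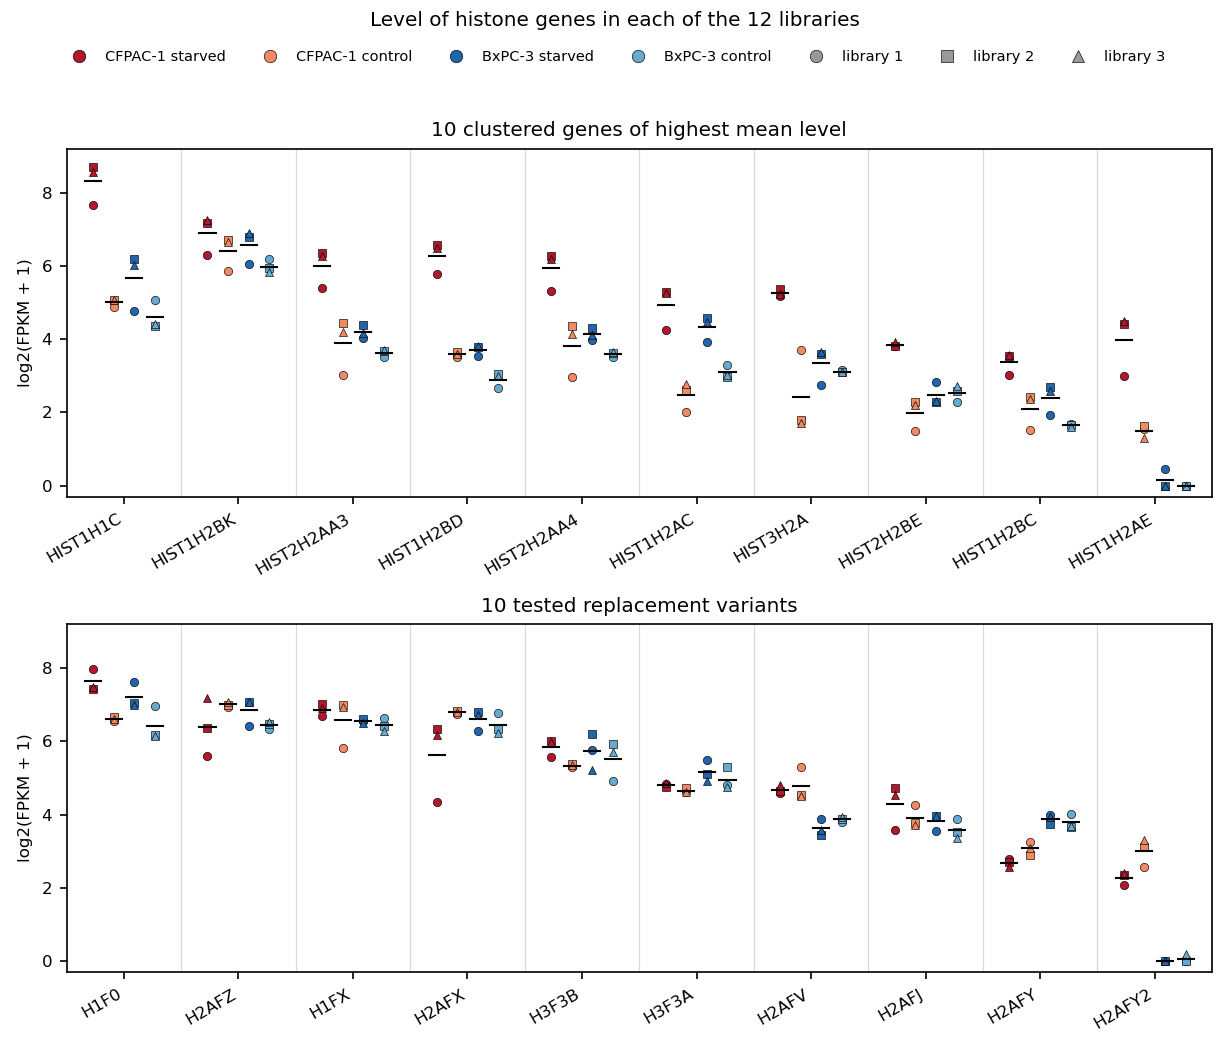
Levels on the log2(FPKM + 1) scale in each library of the 10 clustered genes of highest mean level (top) and the 10 tested replacement variants (bottom), starved left of control in each line, with bars at group means. In starved CFPAC-1, 9 of the 10 clustered genes lie above all control CFPAC-1 libraries, HIST1H2BK being the exception. H2AFX, H2AFY and H2AFY2 lie below them. Of all tested genes, 14% lie above in this way and 17.6% below.

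The highest clustered H3 and H4 genes were lower in mean level than the highest clustered H1, H2A and H2B genes. Of 3 tested clustered H3 genes 2 rose, and of 7 tested H4 genes 6 rose. The 2 H3 genes were HIST1H3D and HIST1H3E, and HIST1H3E needed starved CFPAC-1 to pass the filter. The 6 H4 genes include HIST1H4E, which passed through starved CFPAC-1 alone, so its calls in either fit are no support. HIST2H4B had 9.38, 9.57 and 5.54 FPKM in starved and 1.34, 1.35 and 1.26 FPKM in control CFPAC-1, and rose by 1.95 ± 0.26 (limma adjusted p = 0.00159). Without controls 2 and 3 its change was 1.94 ± 0.38 (limma adjusted p = 0.041). It is near-identical to HIST2H4A and overlaps HIST2H3A on the other strand, so reads may be shared. HIST1H4E had 1.75, 3.10 and 3.57 FPKM in starved and 0.149, 0.126 and 0.287 FPKM in control CFPAC-1 (log2 change 1.65 ± 0.19, limma adjusted p = 0.000941), and without controls 2 and 3 its change was 1.70 ± 0.27 (limma adjusted p = 0.0197). Every starved library stood above every control for both H4 genes, as for 14% of all tested genes, and the filter favoured this for HIST1H4E. HIST1H3D had 3.00, 11.1 and 8.80 FPKM in starved and 1.01, 1.13 and 2.21 FPKM in control CFPAC-1, and rose by 1.70 ± 0.35 (limma adjusted p = 0.0108). Its change of 1.96 ± 0.48 without controls 2 and 3 did not pass (limma adjusted p = 0.074), and no clustered H3 gene passed in that fit. With control 2 alone left out HIST1H3D missed the threshold too (limma adjusted p = 0.0514). The replacement H3 genes encode the H3 deposited outside replication. H3F3B had 46.5, 63.2 and 62.6 FPKM in starved and 38.1, 40.5 and 39.6 FPKM in control CFPAC-1, and H3F3A 27.4, 25.8 and 28.2 FPKM in starved and 23.4, 25.4 and 23.7 FPKM in control CFPAC-1. Their starved libraries were above the controls, yet the log2 changes of 0.52 ± 0.30 and 0.16 ± 0.20 did not pass (limma adjusted p = 0.229 and 0.592). H3F3B overlaps UNK and H3F3A overlaps AL512343.2, so some reads may be shared.

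The members that were not tested did not all point upwards in CFPAC-1. HIST1H4C, HIST1H3A, HIST1H2AH and HIST1H3I were lower in every starved than in every control library, at levels of at most 1.30 FPKM in any library. AL031777.3, HIST2H2BF, HIST1H2BF, HIST3H2BB, HIST1H2BH, HIST4H4, HIST1H2BE and the replacement variant H3F3C were higher in every starved than in every control library. At these levels a few fragments set a value, and no test was made. Of all tested genes, 17.6% were lower and 14% higher in every starved than in every control CFPAC-1 library.

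Summed over the class, clustered genes had 550, 1020 and 977 FPKM in starved and 158, 234 and 222 FPKM in control CFPAC-1. The 16 replacement variants summed to 604 ± 62.2 FPKM in starved and 555 ± 41.9 FPKM in control CFPAC-1 (SD, n = 3 each). Clustered genes therefore made up 57.5% ± 6.26 of both classes in starved and 26.7% ± 2.60 in control CFPAC-1. The log2 ratio of the clustered sums was 2.02, and 1.55 when HIST1H1C, the most abundant, was left out. In BxPC-3 the clustered genes summed to 195, 319 and 310 FPKM in starved and 189, 152 and 146 FPKM in control libraries, the sums of all starved libraries being higher. Their share was 31.6% ± 5.78 in starved and 25.8% ± 1.17 in control BxPC-3, and starved library 1 lay among the controls.

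**Figure D3:**
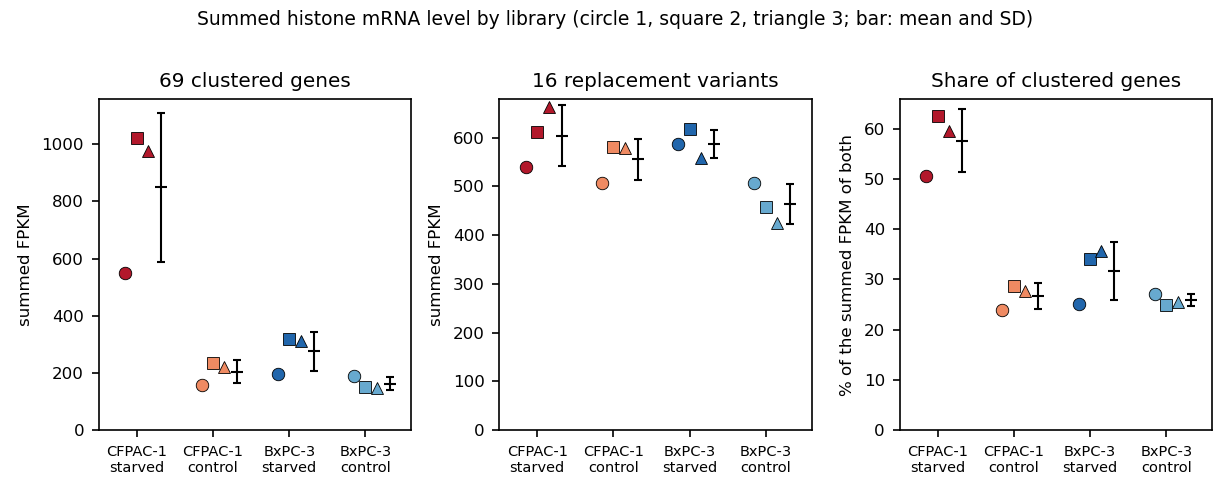
Summed FPKM of the 69 clustered genes (left) and the 16 replacement variants (middle), and the share of clustered genes in the sum of both (right), for each library with mean and SD per group. The 3 starved CFPAC-1 libraries, at 50.5% to 62.6%, lie above the 9 others, at 23.8% to 35.7%.

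In BxPC-3 no member passed the test, clustered or replacement, in a comparison in which 0.334% of all tested genes did. At an unadjusted limma p under 0.05 there were 8 clustered genes and H1F0, beside 1096 of all 12860 tested genes. The median log2 change was 0.42 for the clustered genes, 22 of 26 being positive, 0.18 for the replacement variants and 0.06 for all tested genes. For 9 clustered genes and 1 replacement variant every starved library was above every control library, as for 12.4% of all tested genes. HIST1H2AC had 14.2, 22.9 and 21.2 FPKM in starved and 8.91, 6.87 and 7.06 FPKM in control BxPC-3, without overlap. Its log2 change of 1.23 ± 0.31 was the largest among the members (limma adjusted p = 0.223). HIST1H1C had 26.2, 72.4 and 64.9 FPKM in starved and 32.4, 19.5 and 20.3 FPKM in control BxPC-3. Library 1 went the other way: within libraries numbered 1 the change was -0.30, and within those numbered 2 and 3 it was 1.74 (log2 change over all 1.06 ± 0.38, limma adjusted p = 0.455). Neither the H2B genes nor H1F0 passed. HIST1H2BD had 10.6, 12.9 and 13.1 FPKM in starved and 5.32, 7.28 and 6.96 FPKM in control BxPC-3 (log2 change 0.82 ± 0.22, limma adjusted p = 0.257). HIST1H2BK had 65.7, 110 and 119 FPKM in starved and 71.6, 60.5 and 56.3 FPKM in control BxPC-3, with overlap (log2 change 0.60 ± 0.33, limma adjusted p = 0.666). H1F0 was higher in every starved library, with 194, 131 and 126 FPKM against 123, 70.6 and 69.3 FPKM in control BxPC-3 (log2 change 0.79 ± 0.26, limma adjusted p = 0.393).

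The difference of the starvation changes, BxPC-3 minus CFPAC-1, was tested directly, and 5 clustered genes were lower in BxPC-3 past the threshold, as were 1.11% of all tested genes. HIST1H2BG differed by -2.48 ± 0.28 on the log2 scale (limma adjusted p = 0.00903), HIST1H2AE by -2.33 ± 0.48 (limma adjusted p = 0.036), HIST2H2BE by -1.92 ± 0.34 (limma adjusted p = 0.0234), HIST1H2BD by -1.88 ± 0.31 (limma adjusted p = 0.0197) and HIST1H4E by -1.65 ± 0.27 (limma adjusted p = 0.0185). HIST1H2BG and HIST1H4E entered the test through starved CFPAC-1 alone, and 3 clustered genes are left without them. HIST1H2AE reached the minimum in CFPAC-1 libraries only, so its difference was favoured too, and 2 clustered genes are left without it. HIST1H2BG, HIST1H2AE and HIST1H4E were at or near 0 in BxPC-3 in either condition, and their own log2 changes there were 0.05, 0.15 and 0. HIST2H2BE had 13.2, 13.1 and 14.1 FPKM in starved and 1.79, 3.88 and 3.65 FPKM in control CFPAC-1. In BxPC-3 it had 6.08, 3.87 and 3.99 FPKM in starved and 3.87, 5.01 and 5.65 FPKM in control libraries, which overlap. For HIST1H1C the difference was -2.26 ± 0.54 (limma adjusted p = 0.053). Without CFPAC-1 controls 2 and 3, 3 clustered genes passed, HIST2H2BE, HIST1H2BG and HIST2H2AA4 (limma adjusted p = 0.0397, 0.0419 and 0.0466), beside 0.249% of all tested genes, and 2 are left without HIST1H2BG. No replacement variant passed in either fit. These counts rest on single libraries. With 1 library left out, 13 clustered genes were lower in BxPC-3 and 1 replacement variant was higher without CFPAC-1 control 1, 9 clustered genes were lower without CFPAC-1 starved 1, and none without BxPC-3 control 2. The count was 1 without library 2 or 3 of starved CFPAC-1, control CFPAC-1 or starved BxPC-3, and 1 without BxPC-3 control 3.

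Between the lines, 14 clustered genes and the replacement variants H2AFV and H2AFY2 were lower in starved BxPC-3 than in starved CFPAC-1, beside 14.8% of all tested genes, and H2AFY was higher. In control culture 4 clustered genes (HIST1H2AE, HIST1H2BG, HIST1H3D and HIST1H2BD) and again H2AFV and H2AFY2 were lower in BxPC-3, beside 13.1% of all tested genes, and H2AFY was higher. The clustered genes furthest apart in starved cells were HIST1H2AE, HIST1H2BG, HIST1H3D, HIST1H1C and HIST1H2BD, with log2 differences of -3.83, -3.20, -2.81, -2.66 and -2.57, all with limma adjusted p at or below 0.00034. In control cells those of HIST1H2AE, HIST1H3D, HIST1H2BG and HIST1H2BD were -1.50, -1.17, -0.72 and -0.69 (limma adjusted p = 0.00733, 0.0285, 0.0224 and 0.0392). HIST1H2AE, HIST1H3D and H2AFY2 reached 1 FPKM in all CFPAC-1 and no BxPC-3 libraries, and HIST1H2BG and HIST1H4E in starved CFPAC-1 alone, so these 5 entered the test through the line in which they are high and their difference was favoured. Left aside after the data were seen, they leave 10 clustered genes and H2AFV lower and H2AFY higher in starved BxPC-3. In control BxPC-3 they leave HIST1H2BD and H2AFV lower and H2AFY higher. The 10 still include HIST1H3E, which also needed starved CFPAC-1 to pass the filter. Without CFPAC-1 controls 2 and 3, HIST1H2AE, H2AFV and H2AFY2 remained lower in control BxPC-3 and HIST2H2BE was higher there (log2 difference 1.05, limma adjusted p = 0.0169). HIST1H2BG, HIST1H3D, HIST1H2BD and H2AFY did not pass in that fit (limma adjusted p = 0.0716, 0.194, 0.187 and 0.112). The macroH2A genes went in opposite directions. H2AFY had 14.8, 12.4 and 14.3 FPKM in starved BxPC-3 against 5.87, 5.54 and 4.90 FPKM in starved CFPAC-1, a log2 difference of 1.21 ± 0.17 (limma adjusted p = 0.000283). H2AFY2 was listed at 0 in all starved BxPC-3 libraries and in 2 of 3 controls, the other at 0.138 FPKM, against 3.20 to 8.92 FPKM over all CFPAC-1 libraries (log2 difference in starved cells -2.27 ± 0.20, limma adjusted p = 8.14e-06). H2AFV had 13.6, 9.85 and 11.0 FPKM in starved BxPC-3 against 23.1, 24.1 and 27.1 FPKM in starved CFPAC-1 (log2 difference -1.05 ± 0.22, limma adjusted p = 0.0035). H2AFY overlaps C5orf66 and H2AFY2 overlaps AIFM2 on the other strand, and the sources used here do not say whether the counting used strand.

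Several of the clustered genes near 0 in BxPC-3 lie side by side. The HIST1 group on chromosome 6 holds 54 members, and 7 consecutive ones, AL031777.3, HIST1H3D, HIST1H2AD, HIST1H2BF, HIST1H4E, HIST1H2BG and HIST1H2AE, start between 469.5 and 490.8 kb from the start of the first. Their highest level in any of the 6 BxPC-3 libraries was 0.358 FPKM, and HIST1H4E was listed at 0 in all 6. In CFPAC-1 the highest level of each of the 7 lay between 0.586 and 21.8 FPKM. The genes on either side were detected in both lines: HIST1H4D reached 1.29 FPKM in BxPC-3 and 1.04 FPKM in CFPAC-1, and HIST1H3E reached 1.11 FPKM in BxPC-3 and 1.77 FPKM in CFPAC-1. Of the 30 other HIST1 members that reached 0.5 FPKM in a CFPAC-1 library, 26 did so in a BxPC-3 library too, the exceptions being HIST1H4B, HIST1H2BN, HIST1H3F and HIST1H2BH. HIST1H3F and HIST1H2BH lie further along, at 524.1 and 525.5 kb, and reached 0 and 0.0524 FPKM in BxPC-3. The stretch was picked out after its values were seen and no test was made of it.

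**Figure D4:**
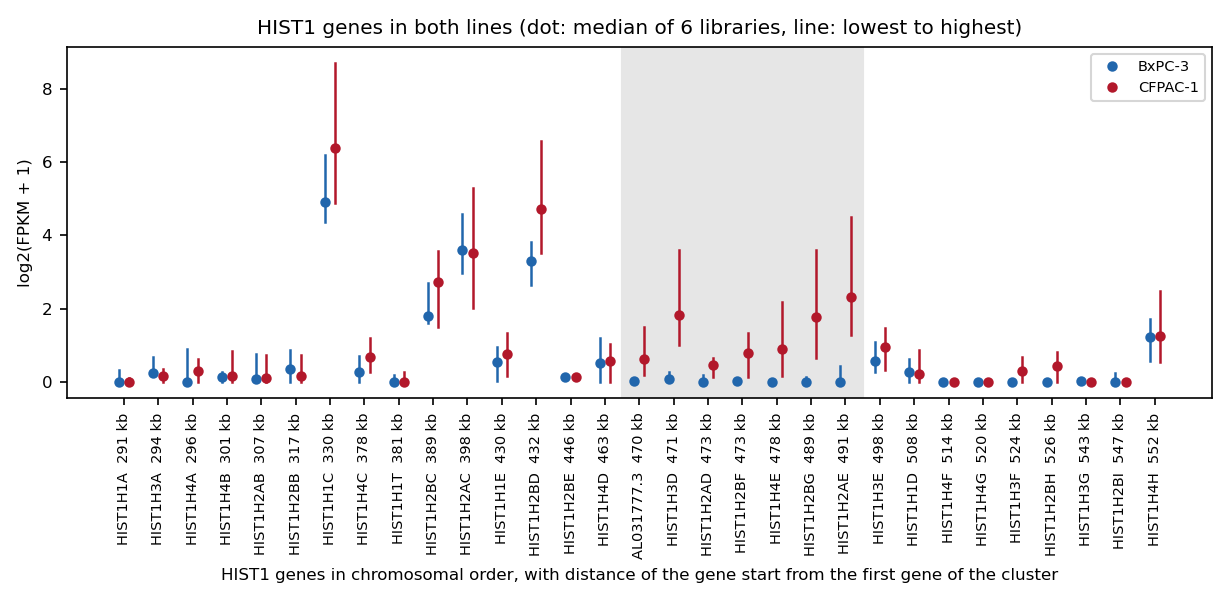
Level on the log2(FPKM + 1) scale of HIST1 members in chromosomal order, with the distance of each gene start from the first gene of the cluster in kb. Dots are medians of the 6 libraries of a line, lines run from the lowest to the highest library, and grey marks the 7 consecutive members whose BxPC-3 level did not exceed 0.358 FPKM.

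Genes that work with histones were set beside the members, and their counts of falls in CFPAC-1 stand beside 8.77% of all tested genes with all libraries and 0.669% without controls 2 and 3. The S phase list, 30 genes of DNA replication and nucleotide supply, had 11 that fell in starved CFPAC-1 and none that rose, with a median log2 change of -0.67. Those of largest fall were TYMS, which makes thymidylate (-1.45, limma adjusted p = 0.00686), the helicase subunits MCM2 (-1.23, limma adjusted p = 0.0325) and MCM5 (-1.18, limma adjusted p = 0.0219), and CLSPN of the replication checkpoint (-1.19, limma adjusted p = 0.00312). Without controls 2 and 3, MCM6, RFC3 and CLSPN fell, with a list median of -1.23. In BxPC-3 none passed, and 29 of 30 changes were positive with a median of 0.40, beside a median of 0.06 for all tested genes. PCNA, the replication clamp, had 206, 265 and 265 FPKM in starved and 180, 144 and 158 FPKM in control BxPC-3 (log2 change 0.60 ± 0.25, limma adjusted p = 0.53). In CFPAC-1 it had 57.5, 83.6 and 81.3 FPKM in starved and 176, 99.4 and 97.8 FPKM in control libraries (log2 change -0.70 ± 0.25, limma adjusted p = 0.0709). In CFPAC-1, 25 of 26 tested clustered histone genes had positive changes, and 29 of 30 S phase genes negative ones. The median of all tested genes was -0.09, and their share of positive changes was not counted. The 25 include HIST1H2BG, HIST1H4E and HIST1H3E, which needed starved CFPAC-1 to pass the filter, so a positive change was favoured.

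Of 18 tested genes for histone gene expression and 3′ end formation, 3 fell in starved CFPAC-1 and none rose. SLBP, the stem-loop binding protein, had 20.6, 21.0 and 22.3 FPKM in starved and 33.9, 33.1 and 33.1 FPKM in control CFPAC-1, and fell by 0.63 ± 0.14 on the log2 scale (limma adjusted p = 0.0159). The processing factors CSTF2 and LSM10 fell by 1.61 and 1.11 (limma adjusted p = 0.00652 and 0.024). Without controls 2 and 3 these 3 did not pass, with log2 changes of -0.65 for SLBP, -0.82 for CSTF2 and -0.85 for LSM10 (limma adjusted p = 0.125, 0.106 and 0.301). In that fit CDK2, the kinase that activates histone transcription, fell by 1.44 (limma adjusted p = 0.0283), whereas with all libraries its log2 change was -0.69 (limma adjusted p = 0.107), control 1 being the highest control. Of 25 tested histone chaperones, 7 fell in starved CFPAC-1 and none rose, with the largest falls for the importin IPO4 by 1.28, NASP by 1.09, CHAF1B of the replication-coupled assembly factor by 1.04 and SSRP1 of the FACT complex by 0.98 (limma adjusted p = 0.0061, 0.00891, 0.0174 and 0.00309). Only HIRA, which deposits replacement H3, passed without controls 2 and 3, and it fell by 1.01 (limma adjusted p = 0.0368). With all libraries its log2 change was -0.58 (limma adjusted p = 0.0554), again with control 1 the highest control. In BxPC-3 no gene of either list passed. SLBP had 25.8, 30.2 and 31.4 FPKM in starved and 22.3, 23.8 and 22.8 FPKM in control BxPC-3 (log2 change 0.32 ± 0.14, limma adjusted p = 0.563), and SSRP1 had a log2 change of -0.06 ± 0.15 (limma adjusted p = 0.985).

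**Figure D5:**
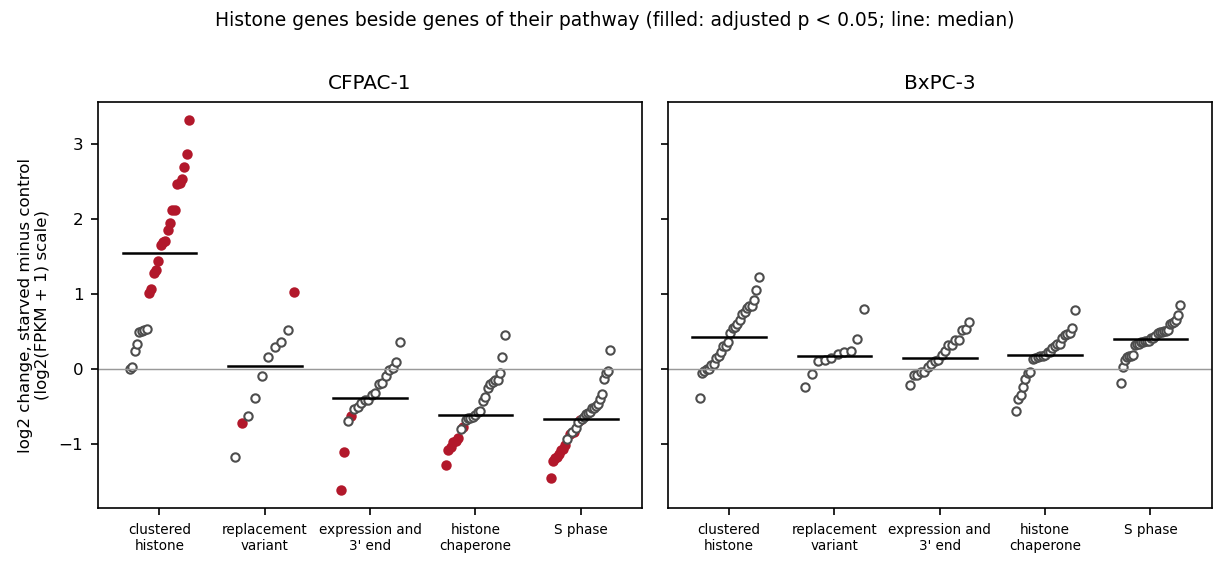
Log2 change with starvation (starved minus control, log2(FPKM + 1) scale) of each tested gene in the clustered and replacement classes and in 3 lists of genes that work with histones, CFPAC-1 at left and BxPC-3 at right, with lines at medians. Filled points passed an adjusted p of 0.05; in CFPAC-1 the median is 1.55 for clustered genes and -0.67 for the S phase list.

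RNAs that carry no poly(A) tail were set beside the members, since how much of them a library holds depends on the way its RNA was selected. Of 9 tested ones, small nuclear, small nucleolar, signal recognition and RNase RNAs, none passed in either line, and the median log2 change was 0.13 in CFPAC-1 and 0.76 in BxPC-3. The BxPC-3 median rests on control 3: without that library, left out after the data were seen, it was 0.02, with 5 of 9 changes positive. Their summed level was 537 to 761 FPKM in 11 libraries and 82.8 FPKM in BxPC-3 control 3, while the clustered histone genes of that library summed to 146 FPKM, against 152 FPKM in control 2. RN7SL1 and RN7SL2 had 256 to 318 and 178 to 253 FPKM in starved CFPAC-1, and 238 to 307 and 166 to 247 FPKM in control CFPAC-1. Mitochondrial genes held between 11.6% and 34% of all FPKM. The lowest share was in starved CFPAC-1 library 1 and the highest in CFPAC-1 control 1, against 19.9% in controls 2 and 3. Of the 13 that encode proteins, MT-ND5 and MT-ND6 fell in starved CFPAC-1 (limma adjusted p = 0.0425 and 0.0423), and neither passed without controls 2 and 3. When the values were scaled without mitochondrial genes, the same 18 clustered genes rose with all libraries. The fit without controls 2 and 3 was not rescaled in this way. Tested clustered genes were also split by how far their GENCODE 29 transcripts that hold the stem-loop run past it. Where these end near it, 5 of 6 genes rose in CFPAC-1, and where 1 extends past it, 9 of 12 did, beside 7.85% of all tested genes. The 6 hold the near-identical copies HIST2H2AA3 and HIST2H2AA4, and the 12 hold HIST2H4A and HIST2H4B. Among the 12 are also HIST1H2BG and HIST1H4E, whose calls are no support. The median log2 changes were 2.11 and 1.67. HIST1H2BD is among the 6, with 39 bases past the stem-loop, although its longest annotated 3′ UTR has 384 bases.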

How the data were processed

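The deposited table holds log2(FPKM + 1) per gene, made by the authors with FastQC and StringTie on GRCh38, per the submitters' processing notes, which give no versions. Total RNA was taken with TRIzol, per the labels' protocols. The sources used here do not name the aligner, the annotation, the strandedness or the RNA selection. FPKM was recovered as 2 to the deposited value, minus 1. Sums of FPKM per library were 258299 to 315377. Only 26.2% of 13027 low values lay within 0.05 of a whole multiple of a read's worth, so reads were not recovered and the depth is unknown. Genes with at least 1 FPKM in at least 3 of 12 libraries, 12860 of 60564, were tested on the deposited scale with limma 3.58.1 (R 4.3.3), 2-sided, with 4 group means (8 residual degrees of freedom), Benjamini-Hochberg adjustment over all tested genes and a threshold of 0.05. Fold changes on this scale understate those of low genes. The limma step was tested on simulated data. Of the gene IDs 96.5% are in GENCODE 29, all 88 members included. Named with values are all tested replacement variants, the 10 tested clustered genes of highest mean level, members past the threshold (above 12 in a comparison, the 6 largest rises and falls) and, per list, up to 4 genes past the threshold in each direction or else the highest in level. Members and lists were chosen with earlier results of these data known. The alternatives were another pseudocount, filter, scaling and limma setting, each line alone, the replicate number as a block, and libraries left out, with members or a library left out of some counts after seeing the data.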

Additional observations from a re-analysis of the deposited data

Results flagged for a closer look

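The starvation changes of 5 clustered histone genes differed between the lines by the test of the difference itself, BxPC-3 minus CFPAC-1 on the log2(FPKM + 1) scale. The values were -2.48 for HIST1H2BG, -2.33 for HIST1H2AE, -1.92 for HIST2H2BE, -1.88 for HIST1H2BD and -1.65 for HIST1H4E. HIST1H2BG and HIST1H4E reached the minimum level for testing in starved CFPAC-1 alone, so their difference was favoured by the filter, and 3 genes are left without them. HIST1H2AE reached that level in CFPAC-1 libraries only, which favoured its difference too, and 2 genes are left without it. The 3 starved CFPAC-1 libraries were above the 3 control CFPAC-1 libraries for each of the 5 genes, as for 14% of all tested genes. The 5 were picked by their values in these same libraries, so this adds no support. HIST1H2BG and HIST2H2BE also passed without CFPAC-1 control libraries 2 and 3, while HIST1H2BD, HIST1H4E and HIST1H2AE did not (limma adjusted p = 0.0706, 0.063 and 0.132). HIST1H2BG, HIST1H2AE and HIST1H4E were at or below 0.358 FPKM in all 6 BxPC-3 libraries.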

How the results depend on the processing

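With starvation in CFPAC-1, 20 members passed in the fit reported. The count was 8 with a mean of at least 5 FPKM required, 9 with each line fitted alone, 12 without control libraries 2 and 3, and 15 to 20 when 1 library was left out. In BxPC-3 it was 0, and 0 to 1 with 1 library left out (1 without control 1). For the difference between the lines it was 5, then 2 with a mean of at least 5 FPKM, 3 without CFPAC-1 controls 2 and 3, and 0 to 14 with 1 library left out (0 without BxPC-3 control 2, 14 without CFPAC-1 control 1). Between the lines in starved cells it was 17, then 8 with a mean of at least 5 FPKM and 14 to 19 with 1 library left out. In control cells it was 7, then 3 with a mean of at least 5 FPKM, 4 without CFPAC-1 controls 2 and 3, and 4 to 12 with 1 library left out (12 without CFPAC-1 control 1). Without the 2 members that reached 1 FPKM in starved CFPAC-1 alone, a choice made after the data were seen, the counts were 18, 0, 3, 15 and 6 in this order of comparisons. Without the 5 that reached it in no BxPC-3 library, they were 15, 0, 2, 12 and 3. Fewer genes or libraries entered these fits; otherwise the cause was not tested. The log2 ratio of summed clustered FPKM in CFPAC-1, 2.02, was 1.549 without the top member of each class. With a replicate block the counts were 20, 0, 4, 17 and 7 in this order of comparisons. Starved and control libraries with the same number were also correlated in their deviations from the group means. The values were -0.062, -0.020 and -0.080 in CFPAC-1 and 0.151, 0.110 and 0.054 in BxPC-3. Whether such libraries share more than a number cannot be told from these values. Of 18 clustered genes that rose in CFPAC-1, 11 rose in all 13 fits that left libraries out. The 11 include HIST1H2BG and HIST1H4E, whose calls are no support, and the near-identical copies HIST2H2AA3 and HIST2H2AA4. With 1 library left out, HIST1H4J lost its call without control 2, control 3, starved 2 or starved 3, and HIST1H4K without control 2 or 3. HIST1H3D lost its call without control 2, and HIST1H2BC without starved 2 or 3. H1F0 in CFPAC-1 missed the threshold without the filter, scaled without mitochondrial genes, with quantile normalization and with its line alone (limma adjusted p = 0.063, 0.062, 0.0727 and 0.055), and H2AFY2 with a pseudocount of 0.1, with quantile normalization and with its line alone (limma adjusted p = 0.106, 0.0564 and 0.133). Over 23 named members and 1046 gene values under alternatives, 974 kept direction and side of the threshold, 31 lost the threshold, 33 within-number values moved and 8 changed sign, all of them short of the threshold either way. For H1FX in CFPAC-1, leaving out 1 library gave -0.0894 (without control 1) to 0.491. H2AFV in CFPAC-1 was 0.0147 with quantile normalization, and -0.223 to 0.166 (without control 1). For H3F3B in BxPC-3 the range was -0.096 (without control 1) to 0.467, with -0.0374 without starved 2. For HIST2H2BE in BxPC-3 it was -0.232 to 0.0408 (without control 3), with 0.0375 and 0.0194 without starved 2 and starved 3. Depth is unknown, so members below 1 FPKM carry no statement beyond their values.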

Other observations

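In each of the 4 groups, libraries 2 and 3 were closer to each other than to library 1, with SDs of the log2 difference across genes of 0.259 to 0.282 between 2 and 3, against 0.534 to 1.08 between 1 and their mean. For several members library 1 also stood apart in level: H2AFX had 19.1 FPKM in starved CFPAC-1 library 1, against 79.9 and 71.7 FPKM in libraries 2 and 3, and HIST1H1C had 26.2 FPKM in starved BxPC-3 library 1, against 72.4 and 64.9 FPKM. What the numbers stand for is not given in the sources used here.

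Within the H2A and H3 families the composition was set out by library, with no test. Clustered genes held 56.8%, 54.5% and 48% of the summed FPKM of H2A members in starved CFPAC-1, against 11.2%, 16.1% and 14% in control CFPAC-1. In BxPC-3 they held 21.6%, 21.8% and 20.5% in starved and 16.4%, 16.9% and 16.8% in control libraries. For H3 the clustered share was 14.2% ± 4.24 in starved and 7.17% ± 0.97 in control CFPAC-1, and 5.67% ± 1.45 in starved and 4.75% ± 2.96 in control BxPC-3 (SD, n = 3 each).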
